A study of Drosophila melanogaster with 24 samples.

Results

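The genes examined were 10 Drosophila melanogaster genes of replication licensing and S phase: Mcm2, Mcm3, Mcm5, Mcm6, Mcm7, PCNA, RnrL, RnrS, dup and CycE. They were chosen by function, as a list of gene symbols matched to FlyBase gene rows, out of 17895 gene rows in the larval table and 10889 in the embryo table. All 10 genes were in the larval table, and 6 of the 10 were in the embryo table (Mcm2, Mcm5, Mcm7, PCNA, RnrS and dup), while Mcm3, Mcm6, RnrL and CycE were not analysed here in embryos. The animals carried mutations in sima, which encodes HIF-1 alpha of the fly, a factor that is stabilised when oxygen is low and switches on target genes. Mutants had allele 1 over allele 20 of sima, and controls were heterozygotes with allele 1 over a wild-type chromosome, so 1 copy of allele 1 was common to every animal. Whole embryos aged 8-12 h, 12-16 h and 16-20 h and whole larvae aged 60 h were sequenced, with 3 samples for each genotype at each age and 24 in all. The series title asks whether sima is needed for the glycolytic program of larvae, and the comparisons below ask how replication genes stood in the same samples.

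DNA is copied once per cell cycle because origins are licensed before S phase and fire only during it. The origin recognition complex, Cdc6 and Cdt1 (the product of dup, double parked) load the ring-shaped Mcm2-7 helicase onto DNA, geminin binds Cdt1 and blocks loading, and Cyclin E with Cdk2 starts S phase. PCNA is the sliding clamp that holds polymerases on the template, and ribonucleotide reductase, made of a large subunit (RnrL) and a small subunit (RnrS), makes the deoxyribonucleotides. In the fly embryo the first nuclear cycles run on RNA and protein that the mother supplied, most epidermal cells stop dividing by mid-embryogenesis, and replication continues later in neural precursors and in tissues that endocycle. Larval tissues grow mainly by endocycles.

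Levels are FPKM, fragments per kilobase of gene scaled to the fragments of the library. The estimated depth was between 6.60 and 13.4 M fragments (M for mega) in an embryo library and between 10.3 and 15.2 M in a larval one, which put 34.5 to 4063 fragments on a listed gene in an embryo sample and 47.1 to 925 in a larval sample. sima itself was lower in mutants at every age, by 0.21 to 0.26 on the log2 scale, and passed the test at 12-16 h (adjusted p = 0.0238) and 16-20 h (adjusted p = 0.0222). In embryo controls the summed level of the 2 neuronal markers in the table went from 3.37 to 5.45 FPKM at 8-12 h to between 57.8 and 61.2 FPKM at 16-20 h, and in larvae the summed fat body markers stood between 3665 and 5437 FPKM in controls and between 790 and 2873 FPKM in mutants. Whole animals were sequenced, so fewer cells of a type and less RNA per cell cannot be told apart in any value below.

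In control embryos the replication genes were at their highest at 8-12 h and fell as development went on. Of the 6 genes, 6 fell from 8-12 h to 12-16 h, where 32.1% of all 6784 genes tested fell, and 5 fell again to 16-20 h, where 29.7% of all genes did. The median log2 differences of the 6 genes were -1.49 and -1.14 for the 2 steps, beside 0.02 and 0.05 over all genes tested. A log2 difference here is between group means of log2(FPKM + 1), which understates the change of low genes, and a gene is said to rise or fall where its adjusted p in limma was under 0.05.

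Mcm2 (FBgn0014861, 3R, 8264970 to 8267924, plus strand) and Mcm5 (FBgn0017577, 3R, 10788524 to 10791150, plus strand) encode subunits of the helicase ring. In controls Mcm2 stood at 24.5, 20.2 and 22.0 FPKM at 8-12 h, at 6.71, 5.54 and 7.11 FPKM at 12-16 h, and at 1.83, 2.46 and 2.51 FPKM at 16-20 h. The 3 ages did not overlap, and 10.2% of the 8-12 h mean was left at 16-20 h. Mcm5 followed the same order, with means of 25.5 ± 2.83, 7.96 ± 0.561 and 2.79 ± 0.306 FPKM (SD, n = 3) and 11.0% left. Their log2 differences were -1.64 and -1.56 for the first step and -1.19 and -1.24 for the second, each past the test.

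PCNA (FBgn0005655, 2R, 20261754 to 20262883, minus strand) and RnrS (FBgn0011704, 2R, 11983145 to 11985393, minus strand) had the highest FPKM in controls at each age among the 5 genes other than Mcm7. In controls PCNA went from 77.2 ± 5.34 to 33.2 ± 3.996 and 14.9 ± 0.959 FPKM (SD, n = 3), and 19.4% of the 8-12 h mean was left at 16-20 h. RnrS went from 74.4 ± 2.66 to 40.2 ± 3.28 and 13.6 ± 1.04 FPKM (SD, n = 3), with 18.2% left. Both fell at each step, RnrS by 0.87 and then by 1.50 on the log2 scale.

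The loader gene dup (FBgn0000996, 2R, 15376619 to 15380988, minus strand) had another course. In controls it stood at 32.9, 31.9 and 34.9 FPKM at 8-12 h, at 11.3, 15.7 and 9.25 FPKM at 12-16 h, and at 16.5, 13.9 and 9.49 FPKM at 16-20 h. It fell at the first step (log2 difference -1.42, adjusted p = 0.000703), and the values of the 2 later ages overlapped (log2 difference 0.12, adjusted p = 0.732). At 16-20 h 39.9% of the 8-12 h mean was left, the highest share among the 6 genes. Mcm7 (FBgn0020633, 3L, 8891596 to 8894310, plus strand), another subunit of the helicase ring, went from 17.99 ± 0.568 to 4.90 ± 1.23 and 2.66 ± 0.704 FPKM in controls (SD, n = 3), with 14.8% left.

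A limit of the counting touches Mcm7. An antisense gene, asRNA:CR45871, covers 81.7% of its exon length on the opposite strand, and that gene was listed at no more than 0.0385 FPKM in any embryo sample. Of 72 protein-coding genes wholly covered on the opposite strand alone, 72 were listed at 0 in every larval sample, against 867 of 9151 with no overlap (9.47%). The level of Mcm7 may therefore count only part of the gene, and it is compared below between samples but not with the levels of other genes. For dup the covered share was 5.04%.

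**Figure D1:**
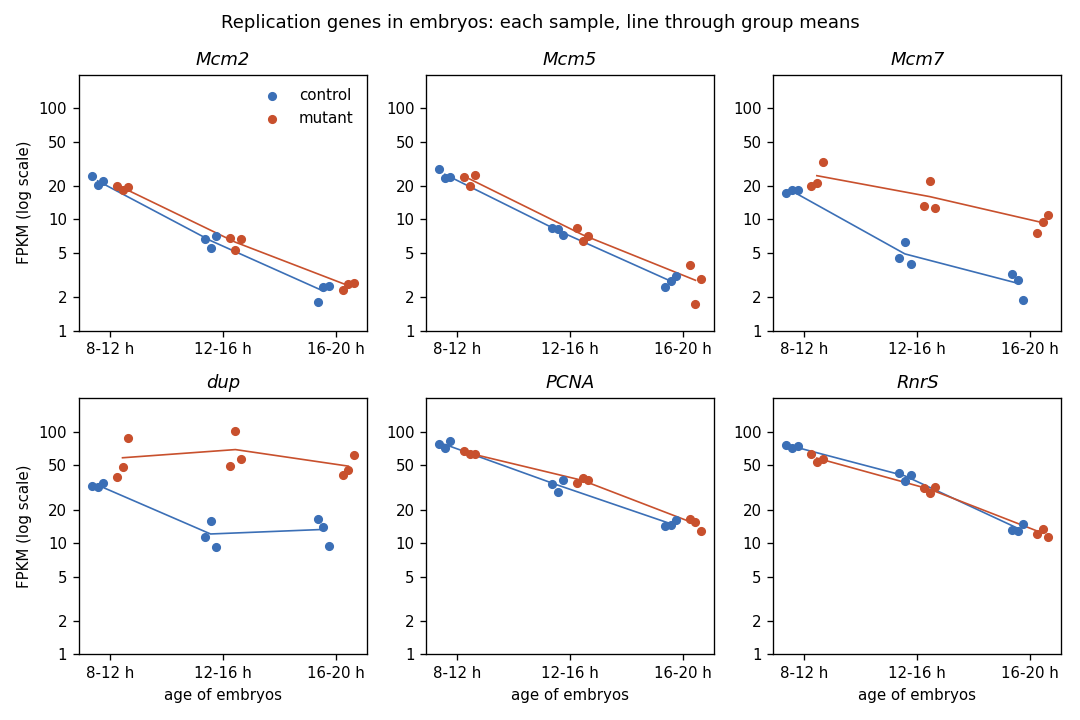
FPKM on a log axis against age for 6 replication genes in embryos, with 1 point per sample (3 per genotype and age) and lines through the group means. Mcm2, Mcm5, PCNA and RnrS run down in both genotypes, while dup in mutants lies between 39.5 and 101 FPKM at all 3 ages and Mcm7 in mutants lies above controls.

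In mutant embryos Mcm2, Mcm5, PCNA and RnrS also fell at both steps, while dup passed at neither and Mcm7 kept a larger share of its early level. Of the 6 genes, 5 fell from 8-12 h to 12-16 h (29.0% of all genes tested fell) and 5 from 12-16 h to 16-20 h (28.1% of all genes). For dup the log2 differences were 0.25 (adjusted p = 0.482) and -0.44 (adjusted p = 0.216). Its mean at 12-16 h was 118% of its 8-12 h mean in mutants, against 36.3% in controls, and at 16-20 h 84.1% against 39.9%. For Mcm7 the shares at 16-20 h were 37.8% in mutants and 14.8% in controls. The other 4 genes also kept a larger share in mutants, by less. The shares in mutants and controls were 13.1% and 10.2% for Mcm2 and 12.3% and 11.0% for Mcm5. They were 23.2% and 19.4% for PCNA and 21.1% and 18.2% for RnrS. The fall of Mcm7 at the first mutant step (log2 difference -0.61, adjusted p = 0.0312) did not pass without mutant replicate 3 of 8-12 h, or replicate 1 or 3 of 12-16 h (adjusted p = 0.165, 0.117 and 0.125). At the second it did not pass without mutant replicate 2 of 12-16 h or 1 of 16-20 h (0.105 and 0.0763), nor in controls without replicate 2 of 12-16 h or 3 of 16-20 h (0.0793 and 0.0814).

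Between mutants and controls, dup and Mcm7 rose and RnrS fell at 12-16 h, 3 of 6 genes, where 31.7% of all genes tested changed in either direction (1222 higher and 926 lower, or 1048 and 1683 after quantile normalization, which moved the median of all genes from 0.02 to -0.09). dup stood at 11.3, 15.7 and 9.25 FPKM in controls and 49.5, 101 and 57.5 FPKM in mutants. The lowest mutant was above the highest control, the mean was 5.74 times that of controls, and the log2 difference was 2.39 (SE 0.302, adjusted p = 0.000140). Mcm7 stood at 4.46, 6.28 and 3.94 FPKM in controls and 13.1, 22.4 and 12.7 FPKM in mutants. Here too the groups did not overlap, with a ratio of means of 3.28 and a log2 difference of 1.51 (SE 0.231, adjusted p = 0.000453).

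The other 3 subunits of the ring that were in the table, Mcm2, Mcm5 and dpa, did not pass the test at 12-16 h. Mcm2 stood at 6.77, 5.34 and 6.61 FPKM in mutants against 6.71, 5.54 and 7.11 FPKM in controls, and the log2 difference was -0.04 with a 95% interval from -0.28 to 0.20. For Mcm5 it was -0.12, with an interval from -0.48 to 0.23. dpa, which encodes Mcm4 and was listed among the other replication genes, had 9.79, 8.76 and 10.6 FPKM in mutants and 10.4, 9.42 and 10.4 FPKM in controls and was not called at any age. Per sample, the ratio of Mcm7 to the mean of Mcm2, Mcm5 and dpa ranged from 0.475 to 0.812 in controls and from 1.57 to 3.28 in mutants at 12-16 h. At 16-20 h the ratio ranged from 0.574 to 1.18 in controls and from 2.08 to 3.21 in mutants. These ratios compare samples and not the levels of the subunits, which act together as 1 complex.

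RnrS, the small subunit of ribonucleotide reductase, went the other way at 12-16 h. It stood at 42.8, 36.6 and 41.4 FPKM in controls and 31.3, 28.3 and 32.0 FPKM in mutants. Every mutant lay below every control, the mean was 0.758 times that of controls, and the log2 difference was -0.39 (SE 0.0887, adjusted p = 0.00476). Fitted to the 6 samples of that age alone, the same difference had an adjusted p of 0.0544. PCNA overlapped between genotypes, at 33.7, 29.0 and 37.0 FPKM in controls and 34.4, 38.3 and 37.1 FPKM in mutants (log2 difference 0.14, interval -0.07 to 0.35).

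At 16-20 h dup and Mcm7 again rose, 2 of 6 genes, where 8.64% of all genes tested rose and 7.18% fell (586 and 487 genes, or 515 and 731 after median centring), and 0 of the 6 fell. dup stood at 16.5, 13.9 and 9.49 FPKM in controls and 40.9, 45.1 and 61.8 FPKM in mutants. The groups did not overlap, the ratio of means was 3.71, and the log2 difference was 1.83 (SE 0.302, adjusted p = 0.00136). Mcm7 stood at 3.26, 2.85 and 1.89 FPKM in controls and 7.53, 9.49 and 11.0 FPKM in mutants, again with no overlap, a ratio of 3.51 and a log2 difference of 1.50 (SE 0.231, adjusted p = 0.000839). RnrS overlapped, at 13.1, 12.9 and 14.8 FPKM in controls and 12.0, 13.5 and 11.4 FPKM in mutants (log2 difference -0.13, interval -0.32 to 0.06). Mcm2, Mcm5 and PCNA had log2 differences of 0.12, -0.02 and -0.01 and overlapped between genotypes.

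At 8-12 h RnrS fell in mutants, 1 of 6 genes, where 5.63% of all genes tested changed in either direction. It stood at 76.5, 71.4 and 75.4 FPKM in controls and 64.0, 53.8 and 56.8 FPKM in mutants, with no overlap, a ratio of means of 0.782 and a log2 difference of -0.35 (SE 0.0887, adjusted p = 0.0329). That call was lost without any 1 of the 3 controls (adjusted p = 0.135, 0.0790 and 0.0813 without replicates 1 to 3) or without mutant replicate 2 or 3 (0.138 and 0.0985). PCNA also lay lower in every mutant, at 67.0, 62.8 and 62.8 FPKM against 77.2, 71.9 and 82.5 FPKM, and did not pass (log2 difference -0.26, adjusted p = 0.130). Mcm2 likewise lay lower in every mutant, with a ratio of means of 0.870, and did not pass (log2 difference -0.19, adjusted p = 0.341). Mcm5 overlapped, with a ratio of 0.908 (log2 difference -0.14, adjusted p = 0.693). The 3 neuroblast markers in the table, of 6 listed, summed to 40.1 to 46.8 FPKM in mutants and 54.2 to 60.0 FPKM in controls at 8-12 h. In limma 0 of the 3 passed and 2 had an unadjusted p under 0.05, where 1541 of all 6784 genes did. At 12-16 h the sums of the 3 markers overlapped (12.9 to 17.98 and 11.9 to 18.7 FPKM). Their part in the values of RnrS, PCNA and Mcm2 was not tested. dup stood at 39.5, 48.6 and 87.6 FPKM in mutants against 32.9, 31.9 and 34.9 FPKM in controls, and Mcm7 at 20.0, 21.1 and 33.1 FPKM against 17.3, 18.2 and 18.4 FPKM. Every mutant was above every control for both genes, but mutant replicate 3 stood far above the other 2, and neither passed the test (log2 differences 0.72 and 0.40, adjusted p = 0.172 and 0.324).

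**Figure D2:**
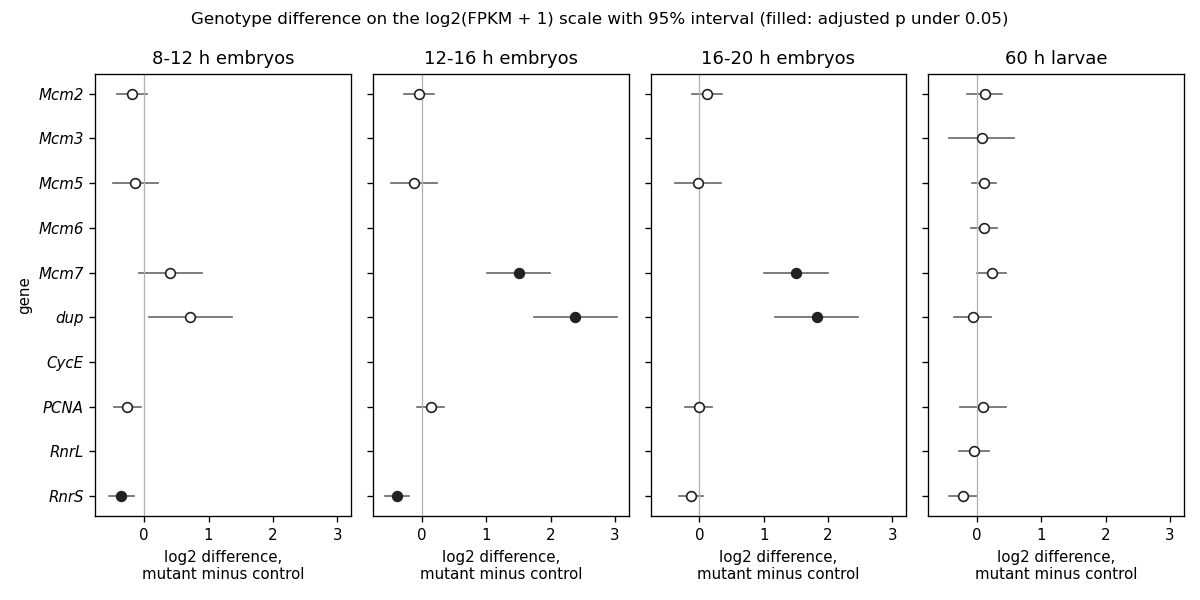
Log2 difference between mutants and controls on the log2(FPKM + 1) scale for each replication gene (rows) at each age (panels), with 95% intervals; filled points have an adjusted p under 0.05. In embryos dup reaches 2.39 and Mcm7 1.51 at 12-16 h, RnrS lies at -0.35 and -0.39 at the 2 earlier ages, and in larvae all 9 genes tested lie between -0.21 and 0.23.

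Whether the genotype difference itself changed with age was tested with limma's moderated F test over the 3 embryo ages. It passed for dup (adjusted p = 0.0396) and Mcm7 (adjusted p = 0.0430), 2 of 6 genes, where 14.6% of all genes tested passed. The difference of dup was larger at 12-16 h than at 8-12 h by 1.67 on the log2 scale (adjusted p = 0.0436), and that of Mcm7 by 1.10 (adjusted p = 0.0666). Mcm2, Mcm5, PCNA and RnrS did not pass (adjusted p = 0.326, 0.901, 0.120 and 0.259). The pass of each gene was narrow: 12 of the 18 fits that left out 1 library took it away for dup, and 12 of 18 for Mcm7, with adjusted p up to 0.0911 and 0.107.

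Some maternally supplied RNAs were also higher in mutant embryos, in the same libraries. bcd and plu, named after their values were seen, encode a maternal patterning factor and a regulator of the first nuclear cycles. At 12-16 h the 3 controls had 0.974, 2.24 and 0.191 FPKM of bcd, and the 3 mutants 14.4, 37.0 and 17.98 FPKM. For plu the values were 0.442, 1.36 and 0.409 FPKM in controls and 8.87, 26.8 and 12.0 FPKM in mutants. Both rose at 12-16 h (log2 differences 3.50 and 3.18) and at 16-20 h (2.01 and 1.89), and neither passed at 8-12 h (1.29 and 1.22). Of 13 listed maternal RNAs, 10 were in the embryo table and 8 were tested, of which 0, 2 and 4 rose at the 3 ages and 0 fell. Some of the list lay lower in mutants. The mean of nanos was 0.82, 0.92 and 0.70 times that of controls at the 3 ages, with overlap at each. That of vib was 0.85 times controls at 16-20 h, with every mutant below every control. Over all genes tested, 5.63% changed in either direction at 8-12 h, 1222 of 6784 rose at 12-16 h and 8.64% rose at 16-20 h. The summed level of the 10 ranged from 66.4 to 69.96 FPKM in controls and 67.8 to 118 in mutants at 8-12 h, from 63.8 to 74.3 against 99.4 to 145 at 12-16 h, and from 60.9 to 67.4 against 89.9 to 109 at 16-20 h.

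The mutant library with the highest bcd and plu at each age (replicate 3 at 8-12 h, 2 at 12-16 h and 3 at 16-20 h) was also the one with the highest dup and Mcm7. In 12-16 h controls replicate 2 likewise had the highest bcd, plu, dup and Mcm7, but in 16-20 h controls bcd and plu were highest in replicate 2 and dup and Mcm7 in replicate 1. In 8-12 h controls bcd, dup and Mcm7 were highest in replicate 3 and plu in replicate 1. Over the 18 embryo samples, as a description, Pearson's r of log2(FPKM + 1) was 0.975 between dup and bcd, 0.752 between Mcm7 and bcd, and 0.144 between Mcm2 and bcd, over samples that share age, genotype and library. With the mean level of the maternal list as a covariate, the log2 difference of dup was 0.63 at 12-16 h and 0.80 at 16-20 h (adjusted p = 0.399 and 0.0963), and that of Mcm7 was 0.14 and 0.71 (adjusted p = 0.831 and 0.0527). That of RnrS was -0.26 at 8-12 h and -0.11 at 12-16 h (adjusted p = 0.182 and 0.774). Thus 0 of the 6 genes passed in any genotype comparison with this covariate, under which 136, 24 and 216 of all 6784 genes passed at the 3 ages. An unadjusted p under 0.05 was reached by 1, 0 and 2 of the 6, and by 996, 1160 and 1389 of all genes. The covariate was itself higher in mutants, so the maternal level and the genotype cannot be told apart in full.

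**Figure D3:**
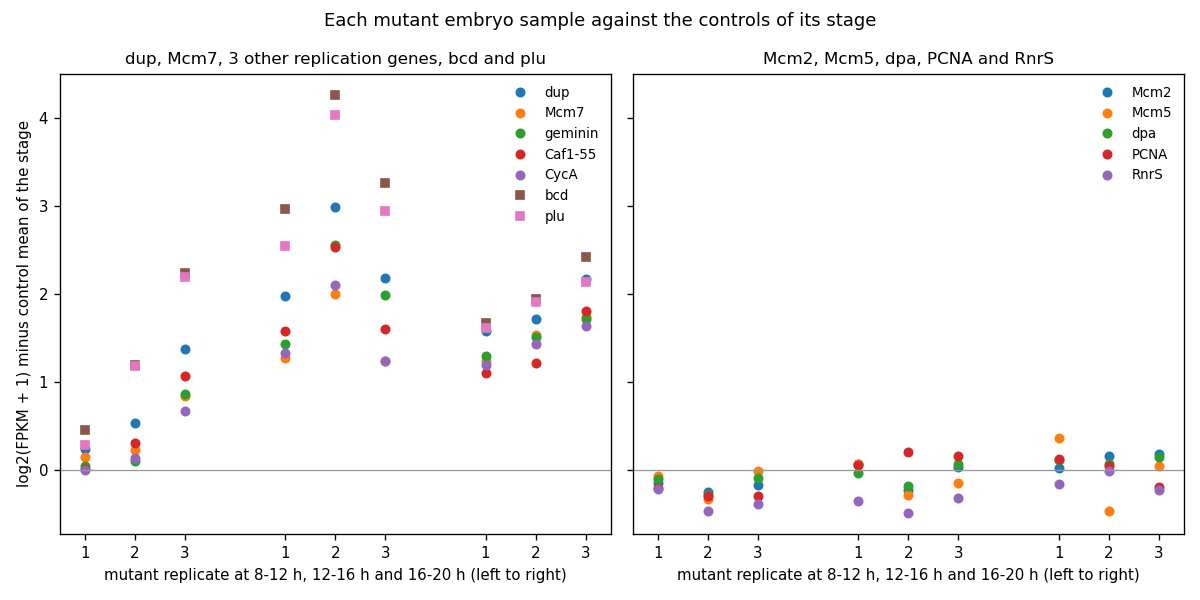
Log2(FPKM + 1) of each mutant embryo sample minus the mean of the controls of its age, for dup, Mcm7, geminin, Caf1-55, CycA, bcd and plu (left) and for Mcm2, Mcm5, dpa, PCNA and RnrS (right); squares are the maternal RNAs bcd and plu. On the left, replicate 3 at 8-12 h, replicate 2 at 12-16 h and replicate 3 at 16-20 h are the highest of their age for each of the 7 genes, and on the right the lowest point is RnrS in replicate 2 at 12-16 h, at -0.49.

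The other genes of the replication pathway, 56 as counted here, were read beside these. The embryo table held 33 of them and 32 were tested, Orc3 being listed at 0 in a position wholly covered by another gene on the same strand. In controls 28 of the 32 fell from 8-12 h to 12-16 h and 27 from 12-16 h to 16-20 h, and in mutants 25 and 27, where 32.1%, 29.7%, 29.0% and 28.1% of all genes tested fell. At 12-16 h 6 rose and 1 fell in mutants, 7 of 32 where 31.7% of all genes changed in either direction, with a median log2 difference of -0.05 beside 0.02 over all genes tested; after median centring 6 rose and 6 fell, and after quantile normalization 6 and 7. At 16-20 h 6 of the 32 rose, where 8.64% of all genes did (median 0.03 beside -0.03). At 8-12 h 0 of 32 passed (median -0.09 beside 0.01) in limma. There 6 of the 32 had an unadjusted p under 0.05, as did 1541 of all 6784 genes tested. With the maternal covariate 0 of the 32 passed in limma at any age. An unadjusted p under 0.05 was then reached by 5, 4 and 4 of the 32 at the 3 ages, and by 996, 1160 and 1389 of all 6784 genes.

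On the log2(FPKM + 1) scale the largest rises at both ages were in geminin, Caf1-55 and CycA. For geminin, the inhibitor of the dup product, the 12-16 h controls had 26.2, 24.1 and 21.4 FPKM and the mutants 66.3, 145 and 97.6 FPKM (log2 difference 2.00, adjusted p = 0.000117). The ratio of dup to geminin per sample ran from 0.431 to 0.650 in controls and from 0.589 to 0.746 in mutants, which overlapped. At the other ages the mutants lay above the controls, at 0.443 to 0.555 against 0.363 to 0.437 at 8-12 h and at 0.575 to 0.684 against 0.379 to 0.544 at 16-20 h. Caf1-55, a histone-binding subunit of chromatin assembly factor 1 and of other chromatin complexes, stood at 24.7, 29.4 and 20.0 FPKM against 74.7, 147 and 76.2 FPKM (log2 difference 1.91, adjusted p = 0.000371). CycA, a cyclin of S phase and mitosis, stood at 7.80, 10.3 and 6.43 FPKM against 21.8, 38.0 and 20.4 FPKM (log2 difference 1.56, adjusted p = 0.000388). At 16-20 h their log2 differences were 1.51, 1.38 and 1.42 (adjusted p = 0.00103, 0.00493 and 0.00132). These 3 genes were highest in the same mutant libraries as bcd and plu, and with the maternal covariate their adjusted p was 0.251, 0.686 and 0.697 at 12-16 h and 0.0947, 0.337 and 0.101 at 16-20 h.

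Cdk2, the kinase partner of Cyclin E, fell at 12-16 h (log2 difference -0.40, adjusted p = 0.0216), a call lost without control replicate 2 or mutant replicate 2 (adjusted p = 0.0702 and 0.117), and 43.9% of its exon length is covered by CG17267 on the opposite strand.

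The remaining calls were smaller on the log2(FPKM + 1) scale. At 12-16 h Sld5 of the helicase-activating GINS complex, the loader Cdc6 and the deoxyribonucleoside kinase dnk rose by 0.73, 0.66 and 0.42 on the log2 scale (adjusted p = 0.0112, 0.0381 and 0.0208). Leaving out mutant replicate 2 took away each of the 3 calls (adjusted p = 0.0570, 0.186 and 0.107), and control replicate 1 or 2 those of Cdc6 (0.0900 and 0.102) and dnk (0.0591 and 0.0970). At 16-20 h Orc6 of the origin recognition complex, the E2F-binding repressor Rbf2 and dnk rose by 0.62, 0.54 and 0.39 (adjusted p = 0.0289, 0.00534 and 0.0481). Rbf2 was low, with means of 0.293 FPKM in controls and 0.884 FPKM in mutants. Its ratio of means was 3.01, beside 2.92 for geminin, 2.71 for Caf1-55 and 2.99 for CycA at that age. The call of dnk was lost in 6 of 6 fits without 1 library (up to 0.198) and that of Orc6 without any 1 of the 3 controls (0.0623, 0.0548 and 0.111) or mutant replicate 3 (0.137), while Rbf2 kept its call in 6 of 6 but lost it with the maternal covariate (0.190) and in a fit to the groups compared alone (0.0505). Besides leaving out libraries, 9 other settings were fitted. At 16-20 h dnk lost its call in 7 of these, Rbf2 in 2 and Orc6 in 1. At 12-16 h Cdc6 lost its call in 4 of the 9, dnk in 3, Cdk2 in 2 and Sld5 in 1. Of the 8 DNA polymerase genes tested, 0 passed at any embryo age, nor did either of 2 clamp loader genes, 1 gene of the single-strand binding protein RPA or 3 genes of fragment joining. An unadjusted p under 0.05 was reached by PolA1 at 8-12 h and 12-16 h, by RfC4 at 8-12 h and 16-20 h and by RPA1 at 8-12 h. Over all 6784 genes tested, 1541, 2894 and 2003 reached it at the 3 ages.

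**Figure D4:**
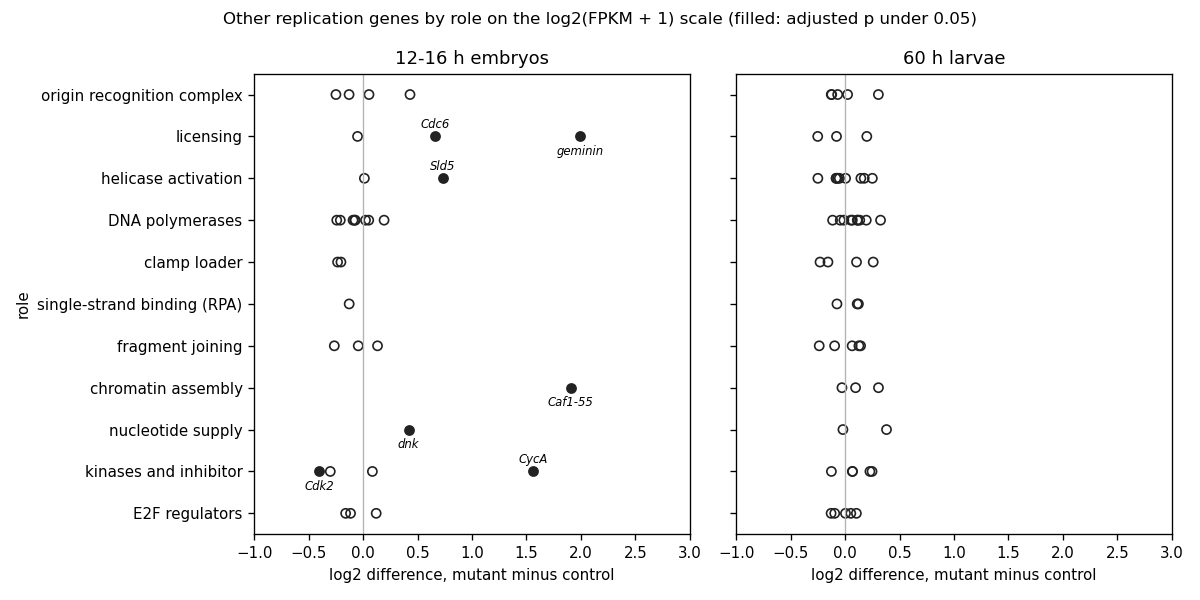
Log2 difference between mutants and controls for other replication genes, by role, in 12-16 h embryos (left, 32 genes) and 60 h larvae (right, 54 genes); filled points have an adjusted p under 0.05 and are named. geminin (2.00), Caf1-55 (1.91) and CycA (1.56) lie far to the right in embryos, and in larvae the 54 genes lie between -0.25 and 0.38.

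In 60 h larvae 0 of the 9 genes tested passed, where 9.40% of all 8619 genes tested changed in either direction (358 higher and 452 lower, or 412 and 337 after quantile normalization). In limma 1 of the 9, Mcm7, had an unadjusted p under 0.05 (0.0488), where 2382 of all 8619 genes did. The log2 differences of the 9 genes lay between -0.21 (RnrS) and 0.23 (Mcm7), with a median of 0.09 beside -0.03 over all genes tested. CycE was not tested, because it was under 1 FPKM in every larval sample.

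The 5 helicase genes in larvae were at the following levels. Mcm2 stood at 6.22, 7.91 and 6.35 FPKM in controls and 6.84, 8.11 and 7.50 FPKM in mutants, and Mcm5 at 8.67, 9.24 and 8.46 FPKM against 9.55, 10.02 and 9.18 FPKM. Mcm3 (FBgn0284442, X) was at 5.53, 5.44 and 3.32 FPKM against 4.18, 6.34 and 4.58 FPKM, and Mcm6 (FBgn0025815, X) at 8.86, 8.35 and 7.88 FPKM against 8.91, 8.61 and 9.80 FPKM. These 4 overlapped between genotypes, and their log2 differences were 0.12, 0.11, 0.07 and 0.11. Mcm7 stood at 2.22, 1.97 and 2.43 FPKM in controls and 2.79, 2.59 and 2.85 FPKM in mutants. It did not overlap, yet its log2 difference of 0.23 (interval 0.00 to 0.45) did not pass (adjusted p = 0.179). The 95% interval of each of the other 4 included 0, and the widest, that of Mcm3, ran from -0.43 to 0.58.

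dup stood at 5.70, 5.33 and 4.40 FPKM in control larvae and 4.27, 5.41 and 4.90 FPKM in mutants. The groups overlapped (log2 difference -0.07, interval -0.36 to 0.22), unlike those of the 3 embryo ages, and the larval and embryo differences were not tested against each other because they come from separate tables. bcd and plu were at or under 0.0905 FPKM in every larval sample. geminin in larvae stood at 20.5, 19.5 and 13.1 FPKM in controls and 19.4, 20.9 and 20.1 FPKM in mutants, and the ratio of dup to geminin ran from 0.273 to 0.336 in controls and from 0.221 to 0.258 in mutants.

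Among the genes of nucleotide supply, RnrS stood at 43.4, 40.0 and 36.6 FPKM in control larvae and 35.5, 34.3 and 33.2 FPKM in mutants. Every mutant was below every control, as at 8-12 h and 12-16 h, but the log2 difference of -0.21 (interval -0.43 to 0.01) did not pass (adjusted p = 0.192). RnrL (FBgn0011703, 2L), the large subunit, overlapped at 25.6, 23.7 and 26.6 FPKM against 27.1, 23.6 and 22.6 FPKM (log2 difference -0.05, interval -0.28 to 0.19). The ratio of RnrL to RnrS ran from 0.590 to 0.725 in controls and from 0.681 to 0.762 in mutants. PCNA stood at 47.6, 45.0 and 32.7 FPKM against 42.7, 45.7 and 43.9 FPKM, and CycE (FBgn0010382, 2L) at 0.908, 0.873 and 0.897 FPKM against 0.903, 0.873 and 0.815 FPKM. Without the filter on low values CycE had a log2 difference of -0.02 (interval -0.17 to 0.13).

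**Figure D5:**
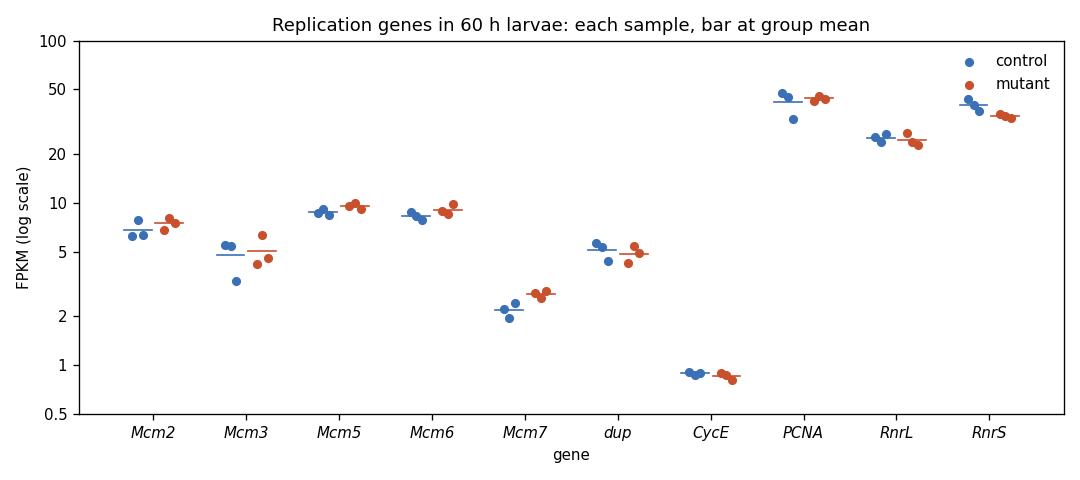
FPKM on a log axis for the 10 replication genes in 60 h larvae, with 1 point per sample (3 per genotype) and a bar at each group mean. The 3 mutants lie above the controls for Mcm7 (2.59 to 2.85 against 1.97 to 2.43 FPKM) and below them for RnrS (33.2 to 35.5 against 36.6 to 43.4 FPKM). Neither difference passed the test, and the genotypes overlap for the other genes.

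Of the 56 other replication genes, 54 were tested in larvae; Orc3 and dUTPase, each wholly covered by another gene, were listed at 0. By limma 0 of the 54 passed, and 8 had an unadjusted p under 0.05, where 2382 of all 8619 genes tested did. The median over the 54 was 0.05. Some tissue markers differed between the larval genotypes. Of 5 muscle markers 3 fell in mutants (summed level 4499 to 6466 against 8888 to 9941 FPKM). Of 3 neuronal markers tested 2 rose (9.63 to 11.9 against 5.11 to 6.67 FPKM over 5 listed). The 6 neuroblast markers were low, with sums, not tested, of 3.57 to 5.37 FPKM in mutants and 2.07 to 2.73 in controls. The 3 glia markers had sums that overlapped, at 15.5 to 16.5 FPKM in mutants and 12.6 to 16.3 FPKM in controls. The 6 fat body markers summed to 790 to 2873 FPKM in mutants against 3665 to 5437 FPKM in controls. In limma 0 of the 4 tested passed and 1, Lsp1beta, had an unadjusted p under 0.05. The fat body marker apolpp overlapped between genotypes, with means of 549 FPKM in controls and 578 FPKM in mutants. The part of these markers in the larval values was not tested.

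Across the 18 embryo samples the genes outside every list whose pattern was most like the mean of the 6 replication genes were Hrb87F, akirin, Chro, Bap170 and rump. Pearson's r, a description over samples that share age and genotype, was 0.994, 0.990, 0.988, 0.988 and 0.988. Within the list, r with that mean was 0.954 for Mcm2, 0.942 for Mcm5, 0.953 for PCNA, 0.897 for RnrS and 0.894 for Mcm7, and 0.547 for dup. Each of these genes is part of the mean, which raises its r. Between single genes, Mcm7 had r of 0.732 with Mcm2 and 0.615 with RnrS, and Mcm2 had 0.985 with Mcm5. For dup alone, looked up after its values were seen, the 5 most alike were polybromo, Nup358, dgt5, SMC2 and pea (r from 0.990 to 0.998), and r was 0.954 with geminin. At 12-16 h polybromo averaged 9.21 ± 2.45 FPKM in controls against 41.3 ± 16.9 FPKM in mutants (SD, n = 3).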

How the data were processed

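RNA from whole embryos (18 samples) and larvae (6 samples) was extracted with a Qiagen RNeasy kit and made into TruSeq Stranded mRNA libraries, per the labels. The authors deposited FPKM values in 1 table per life stage. The submitters' processing notes name featureCounts, DESeq2 and the build BDGP6, without roles; the aligner and annotation are not given in the sources used here. In 2304 embryo genes and 1902 larval genes, low values fell on whole multiples of 1 fragment (98.7% of 10139 embryo values and 94.8% of 2737 larval values, tolerance 0.1). Depth was estimated from low values with exon lengths of Ensembl release 115 (BDGP6), the source of the coordinates. With that depth, 36.7% to 43.8% of all low values of an embryo sample lay within 0.05 of a whole fragment. In a larval sample the share was 34.0% to 38.6%, so depth is approximate.

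The embryo table stops inside row 14337, which was left out. Gene rows were matched by FlyBase ID (10865 of 10889 and 17855 of 17895 found). Genes with at least 1 FPKM in at least 3 samples were tested, 6784 in embryos and 8619 in larvae. Linear models (limma 3.58.1, R 4.3.3) with moderated variances that follow a mean trend were run on log2(FPKM + 1), with 6 group means in embryos and 2 in larvae, fitted separately, and Benjamini-Hochberg adjustment over all genes at 0.05. The fits were tested on simulated data. An exact permutation test of 3 against 3 cannot go below 0.1 and was not used. Figures were drawn with Python 3.11.15.

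The replication genes and the other lists were chosen with earlier results of these data known, and 1 gene of the other replication list is not reported here and is left out of its counts. Named are all 10 genes, the 3 largest rises and falls past the threshold among other replication genes, and the 5 genes most like the list; the remaining calls, bcd and plu were named after their values were seen. Replicates (r from 0.961 to 0.993 over 24 pairs, 0 identical) are not said to be separate collections, so p-values measure only the spread between these samples. Levels in embryos and larvae come from separately made tables. Alternatives were a pseudocount of 0.1, no filter, a minimum of 5 FPKM, quantile normalization, median centring, no trend, a replicate block, the maternal covariate, a fit to the groups compared alone, and leaving out each library.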

Additional observations from a re-analysis of the deposited data

Results flagged for a closer look

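dup and Mcm7 drew attention because their difference between mutants and controls was not the same at the 3 embryo ages, by the test of that change itself (adjusted p = 0.0396 for dup and 0.0430 for Mcm7, limma's moderated F test). For dup the log2 difference was 0.72, 2.39 and 1.83 at 8-12 h, 12-16 h and 16-20 h, and for Mcm7 it was 0.40, 1.51 and 1.50. At 8-12 h neither difference passed in limma (adjusted p = 0.172 and 0.324). Of the 18 fits that left out 1 library, 12 took the pass away for dup and 12 for Mcm7 (adjusted p from 0.0128 to 0.0911 and from 0.0170 to 0.107), and both were lowest without mutant replicate 3 of 8-12 h, the library in which both genes stood highest at that age.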

How the results depend on the processing

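Of the recomputed log2 differences of the replication genes between mutants and controls, 372 kept their side of the threshold, 14 were no longer past it and 0 reversed while past it. The age steps are not in this count, and the calls of Mcm7 lost there are given above. Differences not past the threshold could change sign. That of Mcm5 at 16-20 h ran from -0.21 to 0.21 when 1 library was left out. Under the pseudocount of 0.1, no filter, a minimum of 5 FPKM, quantile normalization, median centring and no trend, the counts of the 4 genotype comparisons and 4 age steps stayed within 1.5 times. With the maternal covariate the counts at 8-12 h, 12-16 h and 16-20 h were 0, 0 and 0 in place of 1, 3 and 2, and the test of change with age passed for 1 gene in place of 2. The count at 8-12 h was 0 with the replicate block and 0 with only the groups compared. The test of change with age passed for 0 genes with no filter (adjusted p = 0.0582 for dup and 0.0622 for Mcm7) and for 0 with the replicate block (0.0692 and 0.0677).

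Leaving out 1 library gave 0 to 1 genes at 8-12 h, 3 at 12-16 h, 2 at 16-20 h, 0 in larvae, 0 to 2 in the test of change with age, and 4 to 5 in the age steps other than the first in controls, which gave 6. Replicate numbers did not pair mutants with controls: mean correlations of deviations were 0.03, -0.08, -0.03 and -0.31 at the 4 ages, and the block took away the call of RnrS at 8-12 h (adjusted p = 0.0713). For the age steps, median centring moved the median of all genes from between 0.02 and 0.05 to between -0.19 and -0.14. Risen and fallen genes numbered 2445 and 2176 in the first control step (2015 and 2768 after centring), 2580 and 2017 in the second (2190 and 2758), and 2432 and 1969 (1895 and 2824) and 2428 and 1907 (2050 and 2676) in the mutant steps. At 34.5 to 4063 fragments per gene, depth limits Mcm2, Mcm5 and Mcm7 at 16-20 h and CycE most.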
